A study of Mus musculus with 14 samples.

Results

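The genes of the LIF and STAT3 pathway were followed here through their histone H3 lysine 4 methylation in mouse embryonic stem cells. They were the ligand Lif, its receptor chains Lifr and Il6st, the kinase Jak1, the transcription factor Stat3, the inhibitor Socs3 and the target Pim1. Gbx2os was also on the list. They were chosen by name, and every peak inside a gene or within 10 kb of either of its ends was taken, from 9 lists for H3K4 marks and 1 list for the methyltransferase Mll1. Of the 8 names, 7 had a position among the 21887 protein-coding genes of the RefSeq annotation of GRCm38.p6 (mm10), and Gbx2os was not analysed here.

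The tested groups were cells given MM-401, an inhibitor of Mll1 activity, at 100 µM, and cells given 4-hydroxytamoxifen (4-OHT) at 5 µM, which activates the inducible Cre and so deletes Mll1. Each treatment lasted 9 days and 3 passages, and untreated cells were the reference. All groups were blastocyst-derived stem cells of genotype Mll1fl/fl; Cre-ER TM on C57BL/6J, so untreated and MM-401 cells also carried the floxed alleles and the recombinase. All were kept feeder-free on Matrigel with LIF, 5% serum and 15% KSR. The promoter driving Cre and the number of clones are not given in the sources used here. Mll1 itself was mapped in untreated cells alone, so the peak lists hold no check that it was inhibited or deleted. Each group had 1 library per mark and no replicates, so nothing could be tested and no p-values are given. Intervals at 95% cover counting error only.

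LIF binds a receptor made of LIFR and gp130, the product of Il6st. JAK kinases on these chains, JAK1 foremost in embryonic stem cells, phosphorylate STAT3, which enters the nucleus and activates genes that hold mouse stem cells in self-renewal. One of its targets, Socs3, encodes an inhibitor that binds the receptor and the kinase and so closes a feedback loop. H3K4me3 lies mainly over active or poised gene starts, H3K4me1 lies mainly at enhancers and on the flanks of starts, and H3K4me2 overlaps both.

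Filtered tags, those left once duplicates were removed, numbered 22.2, 19.8 and 12.9 M in the MM-401 libraries for H3K4me1, H3K4me2 and H3K4me3, against 61.8, 48.6 and 26.4 M in the 4-OHT libraries and 36.9, 40.1 and 25.3 M in the untreated libraries (M, 1000000 tags). The MM-401 libraries were thus shallower than the untreated ones for every mark, and they alone were processed in a separate folder per the file headers, so that folder and MM-401 cannot be told apart. Fragment lengths estimated by the peak caller were 208 to 293 bp with MM-401, against 179 to 194 bp with 4-OHT and 184 to 197 bp in the untreated mark libraries. The 7 stem cell markers looked at, among them Pou5f1, Sox2 and Nanog, had H3K4me3 peaks in all conditions, and their summed level was 1622 tags per M with MM-401, 1643 with 4-OHT and 1218 in untreated cells. Of 4 fibroblast markers, Dcn had no H3K4me3 peak in any condition and the other 3 had one; the 4 summed to 69.2 tags per M with MM-401, 89.96 with 4-OHT and 99.8 in untreated cells. Endoderm markers (4) summed to 237 tags per M with MM-401, 229 with 4-OHT and 249 in untreated cells, and trophectoderm markers (3) to 142, 166 and 171 tags per M in the same order. In stem cells H3K4me3 also marks lineage genes that are silent, so such peaks are no measure of expression, and the part of other cells in the results was not tested.

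The sequences below are promoter windows of 300 bases, from 250 before to 50 after an annotated start (RefSeq, GRCm38.p6), chosen because they set the start without an H3K4me3 peak, that of Lif, beside starts with weak and strong ones. Capitals mark CG dinucleotides. The windows are those of Lif (chr11:4257318-4257617, plus strand), the first start of Lifr (chr15:7129322-7129621, plus), its second start (chr15:7140292-7140591, plus), Socs3 (chr11:117969317-117969616, minus) and the first start of Pim1 (chr17:29490535-29490834, plus), each printed 5′ to 3′ along its gene.
Lif: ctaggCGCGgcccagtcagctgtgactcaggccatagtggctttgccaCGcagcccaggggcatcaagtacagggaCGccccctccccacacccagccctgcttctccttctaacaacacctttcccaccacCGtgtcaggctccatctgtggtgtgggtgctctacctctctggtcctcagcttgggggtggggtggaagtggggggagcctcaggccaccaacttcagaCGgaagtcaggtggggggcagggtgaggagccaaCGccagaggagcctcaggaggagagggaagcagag
Lifr, first start: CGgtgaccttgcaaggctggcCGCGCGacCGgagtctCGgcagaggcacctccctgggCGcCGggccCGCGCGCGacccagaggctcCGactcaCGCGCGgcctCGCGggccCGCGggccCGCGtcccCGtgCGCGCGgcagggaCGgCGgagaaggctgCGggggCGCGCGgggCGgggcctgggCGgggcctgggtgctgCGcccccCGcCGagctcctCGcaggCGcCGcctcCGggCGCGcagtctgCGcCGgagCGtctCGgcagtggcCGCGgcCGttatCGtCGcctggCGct
Lifr, second start: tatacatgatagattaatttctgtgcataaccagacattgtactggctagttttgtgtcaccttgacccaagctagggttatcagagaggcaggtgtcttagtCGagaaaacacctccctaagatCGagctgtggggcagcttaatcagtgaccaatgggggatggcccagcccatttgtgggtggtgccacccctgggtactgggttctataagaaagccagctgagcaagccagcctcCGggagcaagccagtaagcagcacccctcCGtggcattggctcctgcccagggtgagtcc
Socs3: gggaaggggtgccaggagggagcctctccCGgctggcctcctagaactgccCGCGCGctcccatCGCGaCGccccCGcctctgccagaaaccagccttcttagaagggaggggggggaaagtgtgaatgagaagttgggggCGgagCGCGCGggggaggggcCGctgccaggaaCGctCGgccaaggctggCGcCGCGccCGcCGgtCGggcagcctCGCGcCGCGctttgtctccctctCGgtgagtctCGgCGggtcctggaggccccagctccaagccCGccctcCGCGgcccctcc
Pim1, first start: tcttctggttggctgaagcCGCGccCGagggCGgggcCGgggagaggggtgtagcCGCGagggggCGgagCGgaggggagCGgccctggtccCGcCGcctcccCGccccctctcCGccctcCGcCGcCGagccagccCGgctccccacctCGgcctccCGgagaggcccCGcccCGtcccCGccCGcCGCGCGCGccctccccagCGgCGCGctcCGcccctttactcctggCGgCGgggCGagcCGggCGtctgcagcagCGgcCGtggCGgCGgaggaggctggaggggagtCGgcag

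The window of Lif held 7 CG dinucleotides, which was also the median of all 32851 promoter windows of this length. The first start of Lifr held 53, that of Pim1 42, and those of Il6st, Socs3 and Jak1 held 33, 31 and 29. Stat3 lay lower, at 15. The second starts of Lifr and Pim1 held 4 and 5. The binding motif of STAT proteins in its plain form, TTCNNNGAA, reads the same on either strand; among the 9 windows of the members it was found in that of Socs3 alone, as ttcttagaa, beginning 154 bases before the start. Of all promoter windows, 8.30% held this motif at least once.

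H3K4me3 covered the main annotated start of 6 of the 7 members in MM-401, 4-OHT and untreated cells alike. Its level there with either treatment was 0.91 to 1.31 times that of untreated cells. Tags were summed over whole peaks and given per M filtered tags, and overlapping peaks of 1 mark in the 3 conditions were joined into 1 region. Levels are thus shares of a library, so a change common to the whole genome would not be seen in them. The region over the start held 1.31 times the untreated H3K4me3 with MM-401 at Socs3, 1.28 times at Pim1, 1.19 times at Lifr and at Jak1, 1.16 times at Il6st and 1.02 times at Stat3. With 4-OHT the same regions held 1.15 times the untreated level at Pim1, 1.12 at Lifr, 1.04 at Socs3, 0.99 at Jak1, 0.93 at Il6st and 0.91 at Stat3. Lif was the exception: no H3K4me3 peak lay over its annotated start in any condition. The share of all annotated starts with an H3K4me3 peak is not given here, so the count of members cannot be set beside it.

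Summed over each whole gene window, 0 of the 7 members passed a 1.5-fold difference in either direction, the threshold used throughout, in any of the 6 comparisons. Among all genes with a peak in both lists, the share past 1.5-fold in either direction was 16.8% for H3K4me1, 5.91% for H3K4me2 and 9.23% for H3K4me3 with MM-401, and 14.9%, 5.07% and 4.52% for the same marks with 4-OHT. By direction, with MM-401 2.51% of all genes were higher and 14.3% lower for H3K4me1, 1.76% and 4.15% for H3K4me2, and 1.29% and 7.93% for H3K4me3. With 4-OHT 12.5% were higher and 2.39% lower for H3K4me1, 3.64% and 1.42% for H3K4me2, and 2.73% and 1.79% for H3K4me3. The median log2 ratio of the members with MM-401 was -0.13 for H3K4me1, 0.09 for H3K4me2 and 0.14 for H3K4me3, beside -0.12, 0.07 and 0.09 over all genes. With 4-OHT it was -0.03, 0.13 and 0.13 over the members, beside 0.15, 0.05 and 0.02 over all genes. Both treatments were set against the same untreated libraries, so their ratios share that error. Per kb of peak, 18 of the 42 member ratios turned sign.

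**Figure D1:**
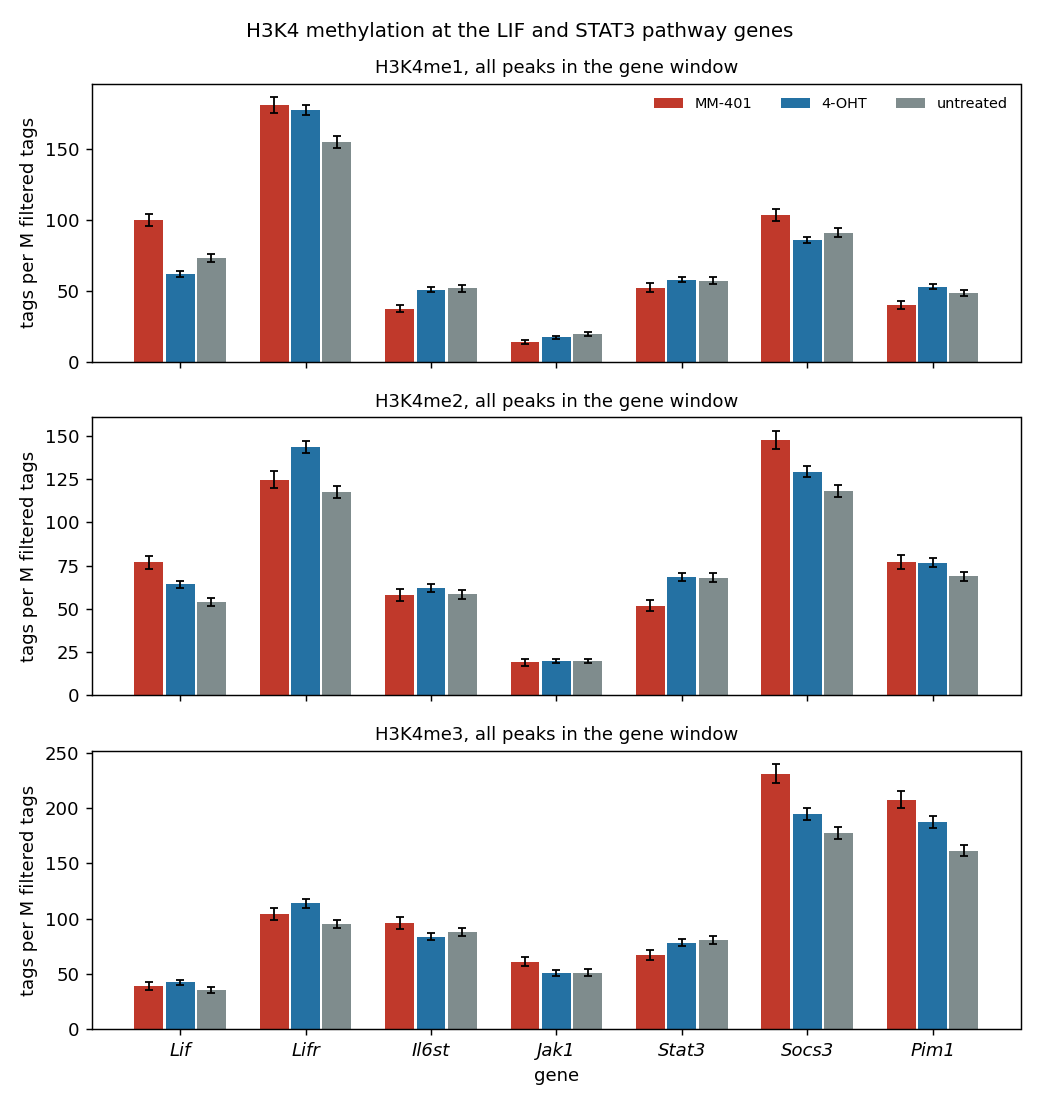
Tags per M filtered tags summed over all peaks in each gene window (gene plus 10 kb on either side), for H3K4me1, H3K4me2 and H3K4me3; bars from left to right are MM-401, 4-OHT and untreated, 1 library each, and error bars are 95% Poisson intervals. Socs3 and Pim1 carry the tallest H3K4me3 bars and Jak1 the lowest H3K4me1 and H3K4me2 bars in all 3 conditions.

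**Figure D2:**
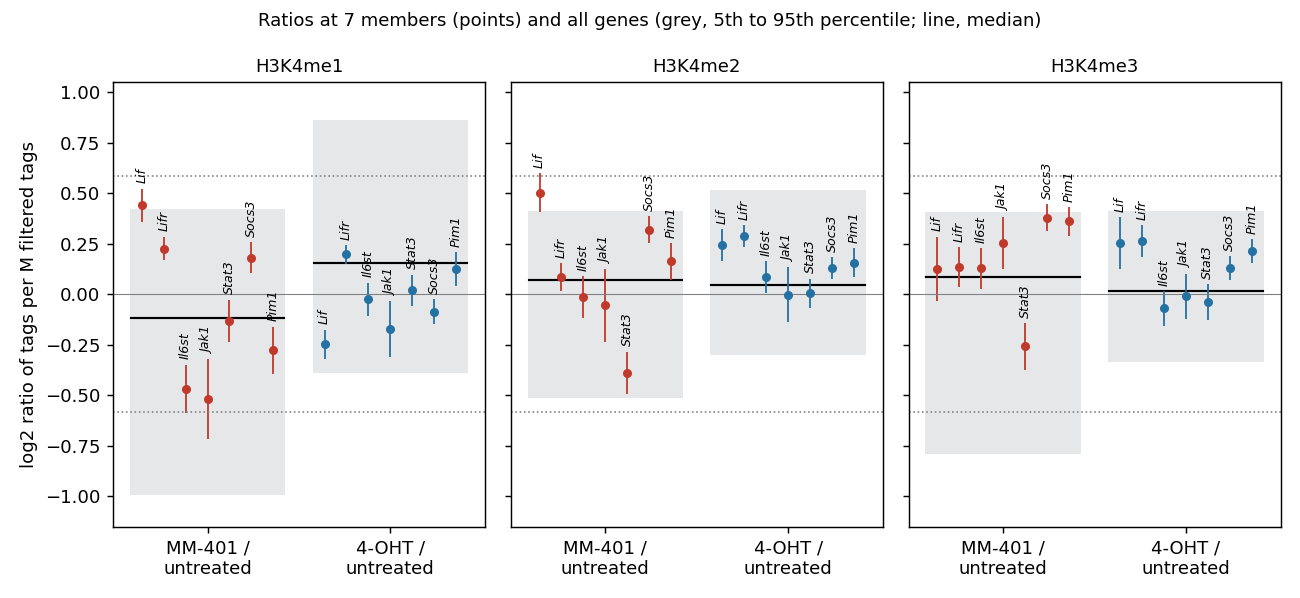
Log2 ratio of tags per M in MM-401 or 4-OHT cells over untreated cells for the 7 members (points with 95% counting intervals), on the 5th to 95th percentile (grey) and median (black line) of all genes; dotted lines mark 1.5-fold. No point lies beyond the dotted lines, and Lif with MM-401 lies above the grey box for H3K4me1 and H3K4me2.

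Lif, the gene of the cytokine itself (chromosome 11, 14.9 kb long, plus strand), carried its main H3K4me3 inside the gene and not at the annotated start. The strong region lay 7.5 to 11.6 kb past the start and held 34.0 tags per M with MM-401 over 4145 bp, 33.5 with 4-OHT over 3551 bp and 25.8 in untreated cells over 2789 bp. That was 1.32 times the untreated level with MM-401 and 1.30 times with 4-OHT. The nearest H3K4me3 peak to the start itself began 956 bp away with MM-401, 882 bp with 4-OHT and 869 bp in untreated cells. This small peak held 1.55, 2.39 and 2.81 tags per M in the same order, which was 0.55 times the untreated level with MM-401, from 20 tags against 71. A further region, 12.9 to 14.6 kb past the start, held 3.17 tags per M with MM-401, 6.44 with 4-OHT and 5.50 in untreated cells. With MM-401, then, summed tags in the strong region of Lif were above those in untreated cells, while the weak regions on either side were lower. The strong region was also wider with MM-401, 4145 bp against 2789 bp. Per kb of peak it was therefore below the untreated value as well.

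H3K4me2 did lie over the start of Lif, at a low level: 3.38 tags per M with MM-401, 1.13 with 4-OHT and 1.70 in untreated cells, from 67, 55 and 68 tags. The joined region over the start was 1.99 times the untreated level with MM-401 and 0.67 times with 4-OHT; per kb of peak the MM-401 value was no higher than in untreated cells (log2 ratio -0.0021), since the peak was 2087 bp wide against 1046 bp. The H3K4me2 region that covers the strong H3K4me3 region held 34.9 tags per M with MM-401, 25.7 with 4-OHT and 22.7 in untreated cells. That region was 1.53 times the untreated level with MM-401 (95% interval of the log2 ratio 0.47 to 0.76) and 1.13 times with 4-OHT.

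Over its whole window Lif had the highest H3K4me1 and H3K4me2 ratios with MM-401 among the 7 members. H3K4me1 was 99.6 tags per M with MM-401, 61.8 with 4-OHT and 73.3 in untreated cells, and H3K4me2 was 76.8, 64.1 and 54.2. H3K4me3 was 38.8 tags per M with MM-401, 42.3 with 4-OHT and 35.5 in untreated cells. The MM-401 ratios of H3K4me1 and H3K4me2, 1.36 and 1.42, stood at the 95.4th and 97.1th percentile of all genes, and that of H3K4me3, 1.09, at the 56.4th. With 4-OHT, H3K4me1 at Lif was 0.84 times the untreated level, at the 9.58th percentile, and H3K4me2 and H3K4me3 were 1.18 and 1.19 times it. The H3K4me1 ratios of the treatments thus lay on opposite sides of 1 at this gene, which was not tested.

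**Figure D3:**
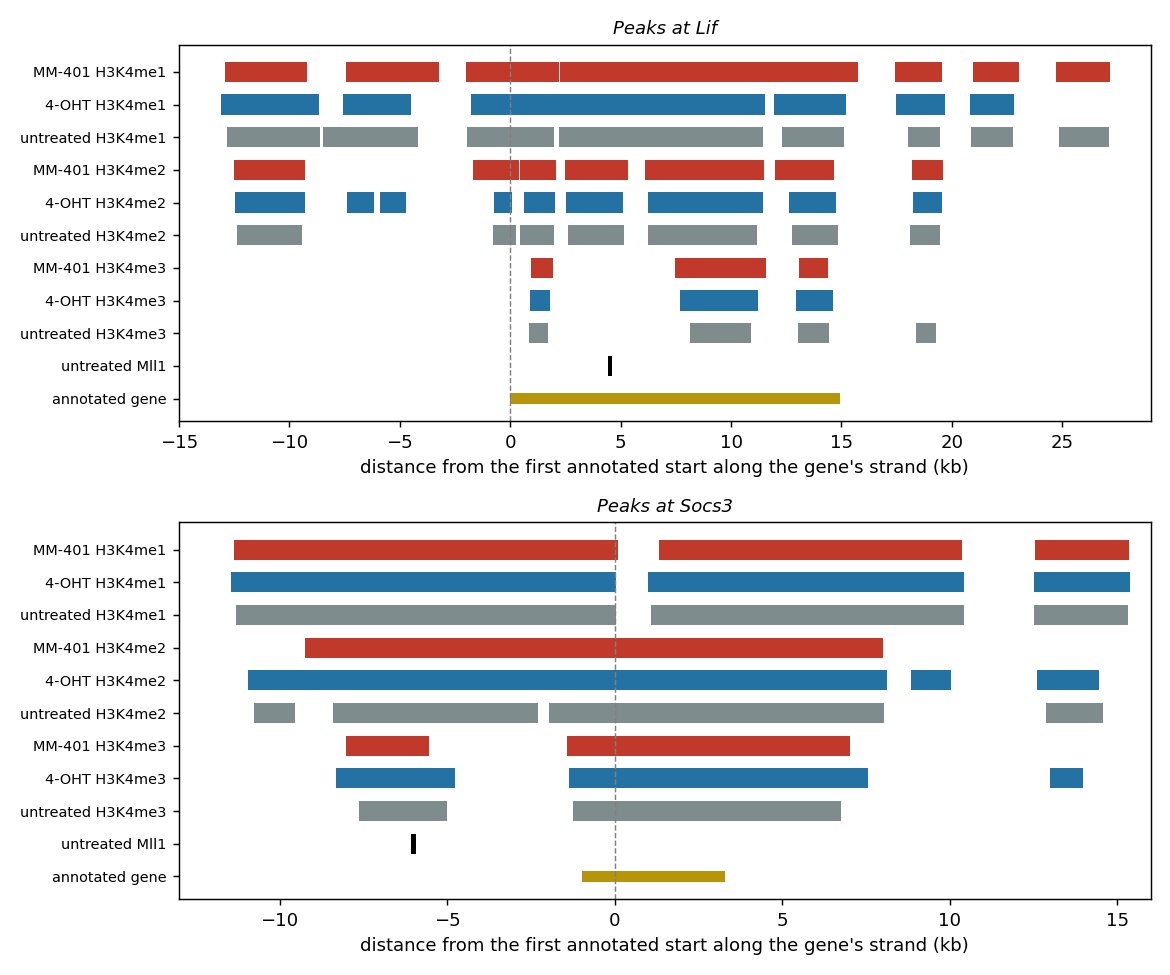
Peaks at Lif and Socs3 by distance from the first annotated start along the gene's strand (kb), with a row for each mark and condition (MM-401, 4-OHT, untreated), a row for Mll1 in untreated cells and the annotated gene at the bottom; the dashed line is the start. At Lif no H3K4me3 bar crosses the start, and the widest ones lie 7.5 to 11.6 kb past it; at Socs3 the H3K4me3 bars cover the start, and the Mll1 peak lies under the upstream H3K4me3 peaks in all conditions.

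Lifr, the chain that pairs with gp130 to bind LIF and some related cytokines (chromosome 15, 107 kb long, plus strand), carried a broad H3K4me3 region over the first of the pair of starts in the promoter table. It held 95.4 tags per M with MM-401 over 7267 bp, 89.4 with 4-OHT over 7511 bp and 80.1 in untreated cells over 6413 bp. In untreated cells it was called as separate peaks, the one on the start 3867 bp wide, whereas both treated lists had 1 unbroken peak. The second start, 11 kb on, had a weak H3K4me3 peak of 4.69 tags per M with 4-OHT and 3.09 in untreated cells, and none in the MM-401 list, whose nearest peak was 5443 bp away. A still weaker region 7.0 to 8.3 kb past the first start held 3.48 tags per M with 4-OHT and 1.15 in untreated cells, from 92 and 29 tags, a ratio of 3.03, and had no MM-401 peak. Upstream, 14.8 to 11.6 kb before the first start and still inside the annotated gene, a region held 5.42 tags per M with MM-401, 6.25 with 4-OHT and 3.80 in untreated cells.

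In its whole window Lifr had 104 tags per M of H3K4me3 with MM-401, 114 with 4-OHT and 94.98 in untreated cells. H3K4me2 was 125 tags per M with MM-401, 144 with 4-OHT and 118 in untreated cells, and H3K4me1 was 181, 178 and 155. All ratios of Lifr lay between 1.06 and 1.22. Single H3K4me1 regions departed further with MM-401: one 53.6 to 43.0 kb before the first start held 28.4 tags per M with MM-401 and 18.6 in untreated cells, and one 35.6 to 41.8 kb past it held 17.2 against 9.87. In the other direction, a region 73.3 to 76.6 kb past the start, beyond the gene's far end, held 1.44 tags per M with MM-401, 3.92 with 4-OHT and 5.67 in untreated cells, from 32, 242 and 209 tags. Its MM-401 peak was 1010 bp wide against 3239 bp in untreated cells, and per kb of peak its log2 ratio was -0.30 in place of -1.98.

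Il6st, which encodes gp130, the receptor chain shared by the cytokines of this family (chromosome 13, 42.8 kb long, plus strand), had 1 strong H3K4me3 region, over its start. The region held 96.1 tags per M with MM-401, 77.4 with 4-OHT and 82.9 in untreated cells. Past the start, 3 weak H3K4me3 peaks of 1.55 to 3.10 tags per M with 4-OHT and of 1.19 to 2.41 in untreated cells had no peak in the MM-401 list. H3K4me2 followed the same layout: 57.8 tags per M at the start with MM-401, 46.2 with 4-OHT and 48.9 in untreated cells, and no other MM-401 peak in the window. One H3K4me2 region 7.3 to 10.99 kb past the start held 6.52 tags per M with 4-OHT and 3.35 in untreated cells, a ratio of 1.95, with widths of 3674 and 1778 bp, so that per kb its log2 ratio was -0.083.

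Over the whole window of Il6st, H3K4me3 was 96.1 tags per M with MM-401, 83.8 with 4-OHT and 87.9 in untreated cells, and H3K4me2 was 57.8, 61.9 and 58.3. H3K4me1 was 37.5 tags per M with MM-401, 50.9 with 4-OHT and 51.8 in untreated cells. The H3K4me1 ratio with MM-401, 0.72, lay at the 20.2th percentile of all genes. Its summed H3K4me1 width was 13.7 kb with MM-401, 26.2 kb with 4-OHT and 22.6 kb in untreated cells. Per kb of peak over the window the sign with MM-401 turned, to a log2 ratio of 0.25. This came from 5 peaks with MM-401 and 7 in untreated cells.

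Jak1, the kinase bound to the receptor chains (chromosome 4, 113 kb long, minus strand), had a single H3K4me3 peak in its whole window in each condition, over the start and of nearly the same width. The peak held 61.1 tags per M over 2678 bp with MM-401, 50.9 over 2611 bp with 4-OHT and 51.2 over 2593 bp in untreated cells. H3K4me2 in the window was 19.2 tags per M with MM-401, 19.9 with 4-OHT and 19.9 in untreated cells, and H3K4me1 was 13.6, 17.3 and 19.5. Jak1 had the lowest H3K4me1 and H3K4me2 sums of the 7 members in every condition, although it is the longest gene among them. Its H3K4me1 ratio with MM-401, 0.70, was the lowest of all 42 ratios of members, at the 17.5th percentile of all genes. Per kb of peak the sign turned, to a log2 ratio of 0.35, with a log2 width ratio of -0.87. For H3K4me1, 5 peaks were listed with MM-401, 7 with 4-OHT and 9 in untreated cells. A weak H3K4me1 region 19.4 to 21.2 kb into the gene held 2.75 tags per M with MM-401, 2.14 with 4-OHT and 1.36 in untreated cells, from 61, 132 and 50 tags.

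Stat3, the transcription factor of the pathway (chromosome 11, 52.8 kb long, minus strand), had H3K4me3 over its start at 57.6 tags per M with MM-401, 51.3 with 4-OHT and 56.6 in untreated cells. H3K4me2 over the start was likewise close between conditions, at 38.0 tags per M with MM-401, 38.0 with 4-OHT and 39.7 in untreated cells. The difference at this gene lay elsewhere: a region 57.2 to 59.8 kb past the start, beyond the far end of Stat3 and inside the annotated body of its neighbour Stat5a, held 9.75 tags per M of H3K4me3 with MM-401, 18.2 with 4-OHT and 18.2 in untreated cells. From 126, 481 and 460 tags, this was 0.54 times the untreated level with MM-401 (log2 ratio -0.90, 95% interval -1.20 to -0.61) and 1.00 times with 4-OHT. H3K4me1 at the same place held 4.05 tags per M with MM-401, 7.30 with 4-OHT and 6.89 in untreated cells, and H3K4me2 held 10.6, 15.7 and 15.7. All 3 marks were lower there with MM-401, and for H3K4me3 the log2 ratio per kb of peak was -0.88.

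Stat3 was also the member with the lowest H3K4me2 and H3K4me3 ratios with MM-401. Its window held 51.9 tags per M of H3K4me2 with MM-401, 68.2 with 4-OHT and 68.0 in untreated cells, and 67.3, 78.3 and 80.5 of H3K4me3. The MM-401 ratios were 0.76 at the 7.25th percentile of all genes and 0.84 at the 18.7th. The window sums include the region in the body of Stat5a. Per kb of peak, summed over the window, the signs turned, to log2 ratios of 0.14 for H3K4me2 and 0.34 for H3K4me3. In each H3K4me2 region with a peak in both lists, however, tags per kb were lower with MM-401. The start region held 38.0 tags per M over 7132 bp with MM-401 and 39.7 over 6816 bp in untreated cells. The window held 3 H3K4me2 peaks with MM-401 and 6 in untreated cells, and 2 and 4 H3K4me3 peaks. H3K4me1 was 52.2 tags per M with MM-401, 57.9 with 4-OHT and 57.1 in untreated cells. Inside the gene, an H3K4me1 region 9.9 to 14.5 kb past the start held 2.48 tags per M with MM-401, 6.96 with 4-OHT and 5.53 in untreated cells. Its MM-401 peak was 1671 bp wide against 2981 bp in untreated cells. Another H3K4me1 region, 40.6 to 42.3 kb past the start, went the other way. It held 2.48 tags per M with MM-401 and 1.03 in untreated cells, from 55 and 38 tags, over 1736 and 962 bp. That region had no 4-OHT peak. A second H3K4me3 peak just past the start peak held 6.44 tags per M with 4-OHT and 4.31 in untreated cells and was not listed with MM-401.

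**Figure D4:**
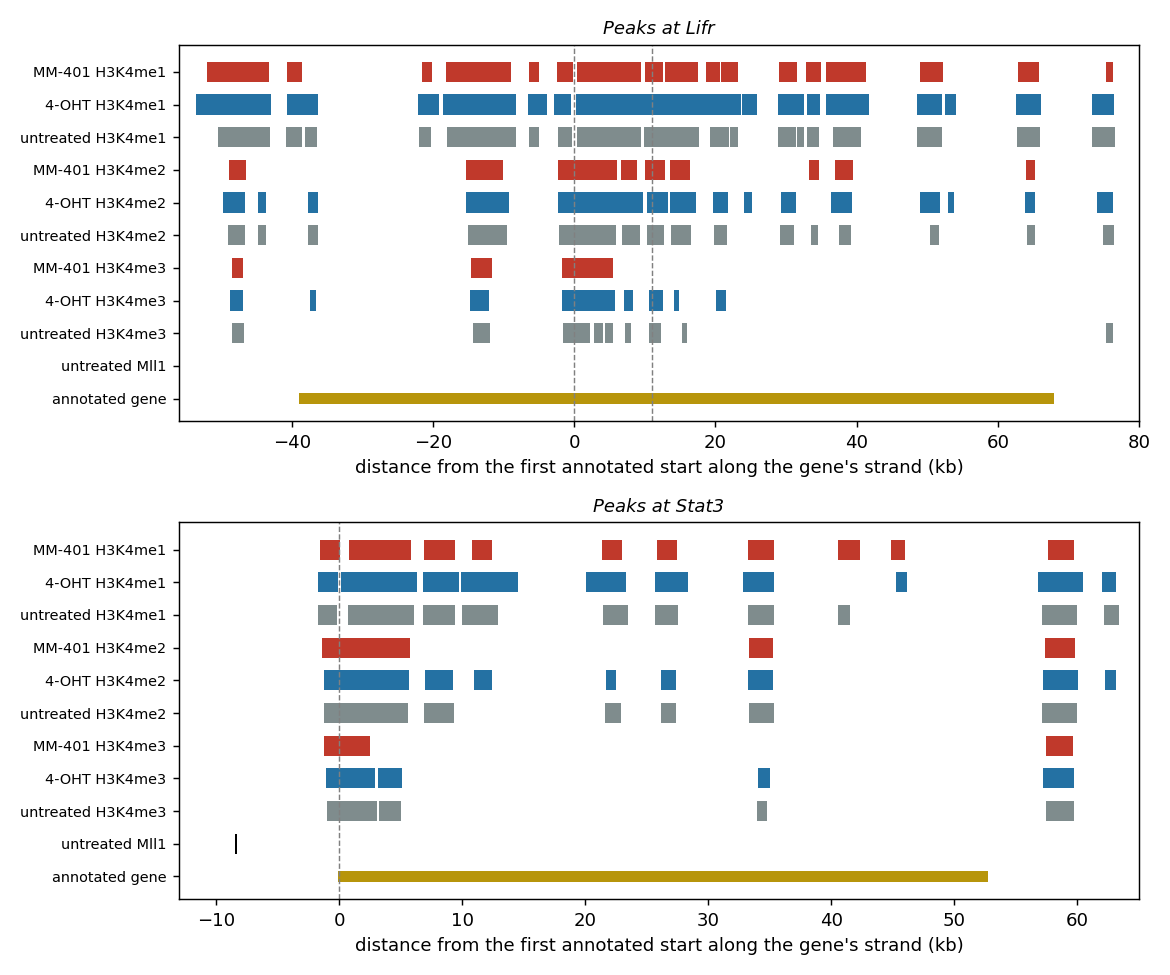
Peaks at Lifr and Stat3 by distance from the first annotated start along the gene's strand (kb), drawn as for Lif and Socs3; dashed lines are the annotated starts. The MM-401 rows of H3K4me2 and H3K4me3 hold fewer bars than the 4-OHT and untreated rows away from the start, and at Stat3 the bars 57.2 to 59.8 kb past the start lie beyond the annotated gene.

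Socs3, the feedback inhibitor (chromosome 11, 4.26 kb long, minus strand), had the highest H3K4me3 sum of the 7 members in every condition. The region over its start held 224 tags per M with MM-401, 178 with 4-OHT and 171 in untreated cells, across 8430, 8924 and 8013 bp, and so was wider than the gene itself. A second H3K4me3 region lay upstream, 8.3 to 4.8 kb before the start. It held 7.12 tags per M with MM-401, 15.2 with 4-OHT and 6.97 in untreated cells, from 92, 401 and 176 tags. With 4-OHT this was 2.18 times the untreated level (log2 ratio 1.12, 95% interval 0.86 to 1.39), and the peak was 3554 bp wide against 2620 bp; per kb of peak the log2 ratio was 0.68. With MM-401 the same region was 1.02 times the untreated level. The single Mll1 peak near Socs3 in untreated cells lay inside this region.

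H3K4me2 ran across both of these regions of Socs3 as 1 peak of 17233 bp with MM-401 and of 17736 bp with 4-OHT, whereas in untreated cells the peak on the start was 9997 bp and a separate one lay upstream. Summed over the joined region, H3K4me2 was 148 tags per M with MM-401, 124 with 4-OHT and 115 in untreated cells. In the whole window, H3K4me3 was 231 tags per M with MM-401, 194 with 4-OHT and 178 in untreated cells, and H3K4me1 was 103, 85.8 and 91.1. The H3K4me3 ratio with MM-401, 1.30, was the highest of the members for that mark, at the 93.4th percentile of all genes.

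Pim1, a STAT3 target that encodes a serine/threonine kinase promoting survival (chromosome 17, 5.33 kb long, plus strand), had 1 H3K4me3 region over both of its annotated starts. The region held 207 tags per M with MM-401 over 6664 bp, 186 with 4-OHT over 7314 bp and 162 in untreated cells over 6548 bp. The ratios were 1.28 with MM-401 and 1.15 with 4-OHT. In the window H3K4me2 was 77.1 tags per M with MM-401, 76.8 with 4-OHT and 68.9 in untreated cells, and H3K4me1 was 40.01, 52.9 and 48.5. An H3K4me2 region 11.4 to 13.2 kb past the first start, beyond the gene, held 2.68 tags per M with MM-401, 4.18 with 4-OHT and 1.95 in untreated cells, a ratio of 2.15 with 4-OHT. The H3K4me1 upstream of Pim1 was narrower with MM-401, where the region 10.3 to 0.4 kb before the start held 16.6 tags per M over 5641 bp, against 25.8 over 9846 bp with 4-OHT and 21.8 over 9134 bp in untreated cells.

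H3K4me1 peaks left a gap over the H3K4me3-covered start at Lifr, Il6st, Jak1 and Pim1 in every condition, taking the first start where a gene has a pair. The distance to the nearest H3K4me1 peak was 145 to 465 bp with MM-401, 63 to 447 bp with 4-OHT and 62 to 668 bp in untreated cells. The share of all starts with such a gap is not given here. At Stat3 the gap was present with 4-OHT and in untreated cells, and with MM-401 a peak of 1662 bp and 3.87 tags per M reached across the start. At Socs3 the edge of a wide H3K4me1 peak of 11472 bp with MM-401, 11481 bp with 4-OHT and 11353 bp in untreated cells reached the start, and at Lif, where H3K4me3 was missing, H3K4me1 covered it. The H3K4me1 peak over the start of Lif held 9.54 tags per M with MM-401 over 4231 bp, 30.3 with 4-OHT over 13321 bp and 7.10 in untreated cells over 3961 bp; the 4-OHT value comes from a peak joined with those inside the gene.

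Per kb of peak, a scale that lets genes be set side by side, H3K4me3 in untreated cells was 24.7 tags per M at Pim1, 19.8 at Jak1 and 16.7 at Socs3. It was 9.69 at Il6st, 8.99 at Stat3, 6.48 at Lifr and 5.96 at Lif. The counting intervals of neighbours in this order overlapped between Il6st and Stat3 and between Lifr and Lif. Jak1, low in its window sum, stood second on this scale because its tags lay in 1 narrow peak. For H3K4me1 per kb, Socs3 led with 3.88 tags per M and Jak1 came last with 1.56, and the intervals of each neighbour between Lif and Il6st (2.43 to 2.29) overlapped.

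Peak width and tags per kb of peak were set apart, since a sum of tags mixes them. Both were taken over all peaks of a list in the window, so a peak missing from 1 list changes them. With MM-401, tags per kb of peak were above the untreated value at 7 of 7 members for every mark, as they were at 94.2%, 93.1% and 72.9% of all genes for H3K4me1, H3K4me2 and H3K4me3. Summed width was above the untreated value at 1 member for H3K4me1, 1 for H3K4me2 and 4 for H3K4me3, beside 12.2%, 19.8% and 35.6% of all genes. At those 4 members, Lif, Jak1, Socs3 and Pim1, both quantities were thus above the untreated value for H3K4me3, though some only slightly. The log2 width ratio was 0.03 at Pim1, 0.04 at Socs3, 0.05 at Jak1 and 0.11 at Lif. At Lif the log2 ratio of tags per kb was 0.02 over the window, although each H3K4me3 region with a peak in both lists was lower per kb with MM-401. The member median of the log2 width ratio was 0.03, beside -0.10 over all genes. With 4-OHT, tags per kb were above the untreated value at 1 of 7 members for each mark, beside 18.4%, 26.6% and 29.1% of all genes. Summed width with 4-OHT was above it at 6, 7 and 7 members, beside 84.7%, 72.1% and 69.5% of all genes. The member medians of the log2 ratio of tags per kb were 0.25, 0.42 and 0.34 with MM-401, beside 0.23, 0.28 and 0.20 over all genes, and -0.15, -0.14 and -0.08 with 4-OHT, beside -0.12, -0.09 and -0.08. Il6st with MM-401 stood farthest from the untreated value, with a log2 ratio of 0.99 for H3K4me3 tags per kb and -0.87 for summed width. Its window held 1 H3K4me3 peak with MM-401 and 4 in untreated cells. The start peak alone held 96.1 tags per M over 4973 bp with MM-401 and 82.9 over 6158 bp in untreated cells, a smaller difference in both quantities. With MM-401, library depth, fragment length and folder differed from those of the untreated libraries, and with 4-OHT depth did; their part in these values was not tested.

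**Figure D5:**
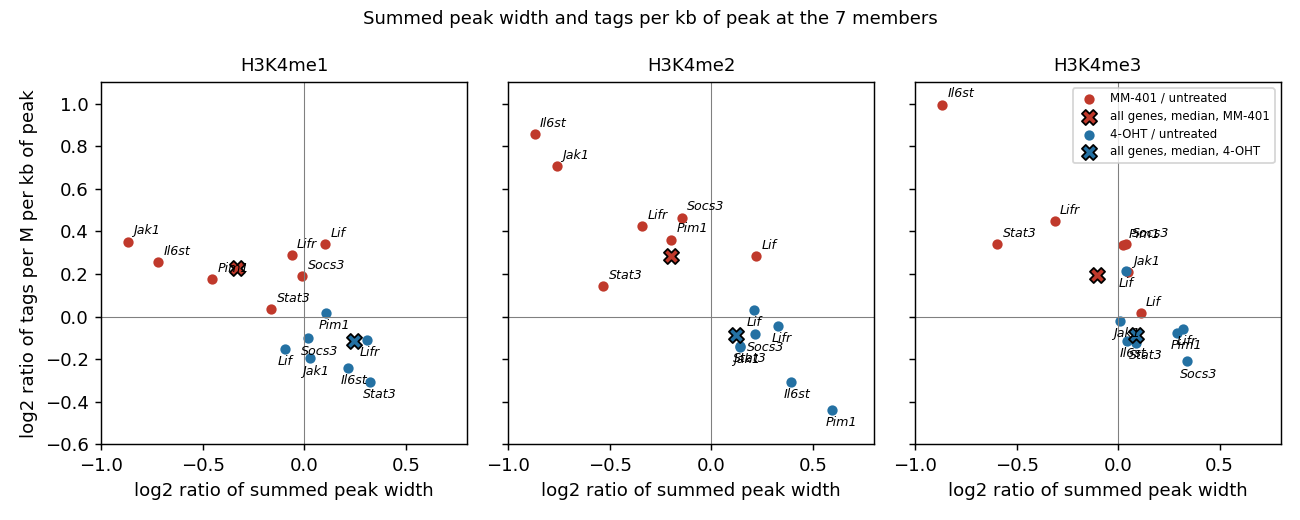
Log2 ratio of summed peak width (x axis) against log2 ratio of tags per M per kb of peak (y axis), treated over untreated cells, for the 7 members (points) and the median of all genes (crosses), by mark; red is MM-401 and blue is 4-OHT. All MM-401 points lie above 0 on the y axis, and 1 of 7 4-OHT points does for each mark.

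Region by region, the untreated peaks of the members that had no counterpart in the MM-401 lists did not cover the main starts. For H3K4me1, H3K4me2 and H3K4me3 these regions held up to 161, 217 and 109 tags. The median over all peaks of the untreated lists was 111, 133 and 98 tags. Of the untreated regions in the member windows, 9 of 50 for H3K4me1, 16 of 39 for H3K4me2 and 10 of 23 for H3K4me3 had no MM-401 peak. Across all genes that share was 32.3%, 31.7% and 34.9%. The untreated level of these regions was at most 4.37, 5.42 and 4.31 tags per M. With 4-OHT, 2 H3K4me1, 1 H3K4me2 and 3 H3K4me3 regions were missing, where all genes gave 8.98%, 5.51% and 6.66%. New regions, without an untreated peak, numbered 1, 0 and 0 with MM-401 and 4, 12 and 5 with 4-OHT for the same marks, at up to 2.76 tags per M; all genes gave 2.94%, 2.07% and 0.535% with MM-401 and 16.2%, 18.6% and 16.3% with 4-OHT. A missing peak means that none passed the authors' threshold, which a shallower library reaches less easily; the depth with MM-401 was 60.3%, 49.5% and 51.2% of that in untreated cells.

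Of the regions with a peak in both lists, 3 of 13 for H3K4me3 were past 1.5-fold with MM-401, all of them lower, against 21.1% of such regions over all genes in either direction, 2.27% higher and 18.8% lower. They were the weak regions on either side of the strong one in Lif and the region in the body of Stat5a. For H3K4me2, 5 of 23 were past the threshold with MM-401 and all were higher, 3 at Lif and 2 at Lifr, where 15.3% over all genes were past it in either direction, 6.03% higher and 9.32% lower. For H3K4me1, 5 of 41 were higher and 4 lower, beside 17.5% in either direction, 7.80% higher and 9.65% lower. With 4-OHT, 5 of 20 H3K4me3 regions were higher and 0 lower, beside 15.1% in either direction, 10.4% higher and 4.73% lower: 3 at Lifr, 1 at Stat3 and the upstream region of Socs3. For H3K4me2, 5 of 38 were higher and 1 lower with 4-OHT, beside 15.5% in either direction, 10.6% higher and 4.92% lower. For H3K4me1 3 of 48 were higher and 1 lower, beside 17.0% in either direction, 10.6% higher and 6.39% lower. Regions were added after the data were seen, and most of these calls rest on width: of all 32, 9 stayed past 1.5-fold in the same direction per kb of peak, among them the Socs3 and Stat5a ones.

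Mll1 peaks in untreated cells lay in the windows of 4 of the 7 members, Lif, Stat3, Socs3 and Pim1, and in 15.8% of all gene windows. The median gene length was 42.8 kb among the members and 17.2 kb over all genes. Of the 4 genes with a peak, 3 were the shortest members (Socs3, Pim1 and Lif), and the longest, Jak1 and Lifr, had none. The part of gene length in these shares was not tested. None of the 4 peaks lay on a start. They were 169 to 194 bp wide and rested on 11 to 14 tags each, and the peak caller's own false discovery rate for them was 1.78% to 4.46%. The fragment length estimated for the Mll1 library was 53 bp, shorter than in every mark library, and its bearing on these peaks was not tested. At Lif the peak was chr11:4261990-4262183, 4.4 kb into the gene, under H3K4me1 and H3K4me2 in all 3 conditions and outside the H3K4me3 peaks. The peak near Socs3, chr11:117975287-117975456, was 5.9 to 6.1 kb before the start and lay under all 3 marks in all 3 conditions. Near Pim1 the peak chr17:29482077-29482261, 8.7 kb before the first start, lay under H3K4me1 with 4-OHT and in untreated cells, under H3K4me2 with 4-OHT, and under no mark with MM-401. Near Stat3 it was chr11:100947848-100948016, 8.5 kb before the start, outside every mark. The Mll1 library had 0.285% of its tags in peaks, so the absence of a listed peak at Lifr, Il6st and Jak1 does not show that Mll1 was absent there.

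The wider pathway, a list of 35 other genes (cytokines and receptors of the same family, further kinases, STAT factors, inhibitors and targets) was measured over whole windows in the same way. Past 1.5-fold with MM-401 were 4 of 34 genes for H3K4me1, all lower, 1 of 34 for H3K4me2, lower, and 1 of 33 for H3K4me3, lower; the shares of all genes lower were 14.3%, 4.15% and 7.93%. With 4-OHT there were 0 of 34, 2 of 34 and 0 of 34, the 2 being higher, beside 12.5%, 3.64% and 2.73% of all genes higher. The kinase gene Tyk2 had 19.2 tags per M of H3K4me1 with MM-401 and 42.4 in untreated cells. The factors Stat5a and Stat5b, which neighbour Stat3, had 10.9 and 29.6 with MM-401 against 22.9 and 48.8 in untreated cells, and the receptor gene Il6ra had 49.3 against 78.4. The others past the threshold with MM-401 were Il6, a cytokine, with 3.18 tags per M of H3K4me2 against 5.79 in untreated cells, and the receptor gene Cntfr, with 13.2 tags per M of H3K4me3 against 20.5. With 4-OHT they were Pias2, an inhibitor of STAT factors, with 329 tags per M of H3K4me2 against 202 in untreated cells, and the adaptor gene Gab1, with 250 against 165. These 8 differences rest on peak width: per kb of peak none passed 1.5-fold, and the log2 ratio turned sign at Tyk2 (0.18), Stat5a (0.04), Stat5b (0.43), Il6ra (0.02), Cntfr (0.08) and Gab1 (-0.23).

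Of this wider list Mcl1, a STAT3 target and survival factor, had the highest H3K4me3 ratio with MM-401: 312 tags per M with MM-401, 308 with 4-OHT and 213 in untreated cells. Per kb of peak its log2 ratio was 0.14 with MM-401 and -0.06 with 4-OHT. Pim3, a relative of Pim1, had 195 tags per M of H3K4me3 with MM-401 and 140 in untreated cells, and the pluripotency factor Klf4 had 264 against 213. Tfcp2l1, a target that sustains self-renewal, had 79.1 tags per M with MM-401, 109 with 4-OHT and 93.3 in untreated cells; per kb of peak the signs turned, to log2 ratios of 1.203 with MM-401 and -0.48 with 4-OHT. Osmr, the receptor for oncostatin M, had 18.3 tags per M of H3K4me3 with MM-401, 18.7 with 4-OHT and 22.6 in untreated cells; per kb of peak its log2 ratio was 0.38 with MM-401 and -0.12 with 4-OHT. None of these 5 genes passed 1.5-fold in H3K4me3. Mll1 peaks lay in the windows of 12 of the 35 genes, or 34.3% beside the 15.8% of all genes. Among them were Tfcp2l1, Klf5, Mcl1 and Pim3. The median gene length of this list was 14.4 kb, and the part of gene length was not tested.

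The genes whose 6 log2 ratios (3 marks under each treatment) lay closest to those of a member, among 16172 genes with all of them, were Enho for Lif, Spen for Lifr, Ift122 for Il6st, Fam107b for Jak1, Micu2 for Stat3, Tomm40l for Socs3 and Emc1 for Pim1. The root mean square difference was 0.10 on the log2 scale for Lif and between 0.02 and 0.05 for the others. Among the members themselves the closest pair was Il6st and Jak1, at 0.09, and Stat3 was farthest from any other, at 0.26 from Il6st. With this many genes a close match is found for most patterns, and the measure says nothing of shared control.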

How the data were processed

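Chromatin immunoprecipitation libraries were analysed from the peak lists that the authors deposited, 1 list for each of 10 libraries; inputs served as controls when peaks were called. The submitters' processing notes name Bowtie2, SAMtools 1.5, MACS2 and mm10; per the file headers the caller was MACS 1.4.2, run on each library alone against 1 input with duplicates removed, with a p cutoff of 1e-05. The deposited counts are unscaled tags per peak; each deposited score is 10 times the −log10 of each peak's p, per the file headers, the ratio is the fold enrichment over local background and the percent is a false discovery rate. The ratio was not used. Another deposited value is the peak width in bp.

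Tags of all peaks overlapping a window (gene and 10 kb on either side) by at least 1 bp were summed and divided by the filtered tags of the library, in M. Levels have exact Poisson intervals and ratios exact binomial ones, at 95%, from Python 3.11.15 and scipy 1.17.1. The 1.5-fold call was tested on simulated H3K4me3 tags with planted changes and unchanged peak positions and widths. The coverage of the intervals was not simulated. Because each group is 1 library, no test was run; a ratio of at least 1.5 either way is called a difference, and no ratio is given without a peak in both lists. Whole peaks are summed, so a joined or wider call moves a value. Per kb values of a window divide summed tags by summed width, so a peak missing from 1 list moves them too. Distances run from the first start in the RefSeq promoter table. The members and lists were chosen with earlier results of these data known. Of the wider list the rule named the 3 highest and 3 lowest ratios of each comparison among genes with at least 50 tags in both libraries together; Il6ra was named after its values were seen. Regions were added after the data were seen. Alternatives changed the window, score limit, scaling, centring, quantity and list length.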

Additional observations from a re-analysis of the deposited data

How the results depend on the processing

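The count of members past 1.5-fold, 0 in all 6 comparisons, was recomputed under 9 other settings. It became 2 for H3K4me1 with MM-401 (Il6st and Jak1) with peaks of score 100 or more, 1 for H3K4me1 with 4-OHT (Pim1) and 1 for H3K4me2 with MM-401 (Socs3) with a 1 kb window, and 2 for H3K4me2 (Il6st and Jak1) and 1 for H3K4me3 (Il6st) with MM-401 per kb of peak. The sign of a member's ratio turned in 18 of 42 cases per kb of peak, in 6 with the score limit, in 6 with a 50 kb window and in 0 to 3 under the others. The 4 members with an Mll1 peak became 2 with a 5 kb window, 1 with a 1 kb window and 0 with the score limit. Counts of regions past 1.5-fold for H3K4me1 with MM-401, 9, became 0 per kb of peak and 3 with the score limit; with 4-OHT, 4 became 1 per kb, 0 with the score limit and 0 with lists of equal number. For H3K4me2 with MM-401, 5 became 1 per kb and 3 with equal lists; with 4-OHT, 6 became 2 per kb and 2 with equal lists. For H3K4me3 with 4-OHT, 5 became 3 per kb, 2 with the score limit and 1 with equal lists. Per kb of peak 6 region log2 ratios turned: H3K4me1 with 4-OHT at Lifr to -0.21 and at Jak1 to -0.13; H3K4me2 with MM-401 at Lif to -0.0021; H3K4me2 with 4-OHT at Lifr to -0.054, at Il6st to -0.083 and at Stat3 to 0.074. Dividing by width makes this alternative; for the others the cause was not tested. Depth limits the weak regions most: counts of 20 to 100 tags leave wide intervals. No paired analysis was possible because each group holds 1 library per mark.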
